A study of Mus musculus with 9 samples.

Results

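The lungs of obese mice given lipopolysaccharide (LPS) were compared with the lungs of lean mice given saline. The comparison used 6 of the 9 arrays of the series, which were the 3 labelled high-fat diet with lipopolysaccharide (HFD + LPS) and the 3 labelled normal diet with sterile saline (control). Another 3 arrays, from mice on the high-fat diet given sterile saline (HFD), were fitted together with these and are shown beside the results. All were male C57BL/6J mice aged 20 weeks that had been on their diet for 12 weeks, with a labelled body weight of 31 ± 0.5 g in the control group and 45 ± 0.5 g in both HFD groups. The high-fat diet drew 60% of its calories from fat, and LPS was given into the trachea 24 h before collection. RNA came from the upper and middle lobes of the right lung, 1 array per mouse. Control and HFD + LPS mice differed in diet and in LPS together, and no arrays of lean mice given LPS were analysed here, so diet and LPS cannot be told apart in this comparison.

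LPS is a component of the outer membrane of Gram-negative bacteria and is sensed by Toll-like receptor 4 on alveolar macrophages, epithelium and endothelium. Instilled into the airways, it is a widely used model of acute lung injury, in which cytokine production is followed by the entry of neutrophils and leakage across the wall of the alveolus. A high-fat diet changes lipid handling in many tissues, including the oxidation of fatty acids in mitochondria, and is used to model diet-induced obesity.

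Compared with control, 1133 of 28264 probes (4.01%) differed in HFD + LPS lungs at an adjusted p under 0.05 in limma, with 517 higher (1.83%) and 616 lower (2.18%). Among the genes that could be named, the higher ones were Carhsp1, an RNA-binding protein that stabilises Tnf mRNA, 3.10-fold, and Cpt1a, the enzyme that commits long-chain fatty acids to mitochondrial oxidation, 2.31-fold. The lower one was Actb, which encodes the cytoskeletal protein beta-actin, with a log2 fold change of -2.60 on a probe detected well above background in 2 of 3 HFD + LPS lungs. The balance of directions turned under other settings, with 1015 higher and 482 lower with normexp background correction, 967 and 511 among probes detected on all 6 arrays, and 1935 and 291 without normalisation between arrays. The 1133 calls rest on the arrays and the model used. There were 0 with the slide row as a block or array brightness as a covariate, and 15 and 9 without control replicate 1 or 2. With the row block the log2 fold change was 1.32 for Carhsp1 (adjusted p = 0.187 in limma), 0.905 for Cpt1a (adjusted p = 0.218) and -2.18 for Actb (adjusted p = 0.226). Values are log2 signals relative to the 75th percentile of the same array, so that 0 is the level of that percentile and a difference of 1 is 2-fold. Genes were named through probes that were spotted 10 times and carry a transcript accession. There were 50 such probes, of which 46 matched a mouse gene symbol in RefSeq, and 36 of these were bright enough to be tested. In the named genes 3 of 36 (8.33%) passed the threshold against 4.01% of all probes tested. An unadjusted p under 0.05 was found for 9 higher and 4 lower genes (36.1%), against 25.6% of all probes (12.3% higher and 13.3% lower). The control and HFD + LPS arrays did not overlap for 15 genes, 10 higher and 5 lower (41.7%), against 29.9% of all probes (14.1% higher and 15.8% lower). The median log2 fold change of the 36 genes was 0.18, and that of all probes tested was -0.02.

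Carhsp1 (chr16:8658580-8672153, GRCm38.p6) lies on the minus strand. The probe for Carhsp1 read 3.28, 4.14 and 3.61 in control lungs and 5.62, 5.34 and 4.96 in HFD + LPS lungs. Every HFD + LPS array lay above every control array. The mean rose from 3.67 ± 0.44 (SD, n = 3) to 5.31 ± 0.33 (SD, n = 3), a log2 fold change of 1.63 (standard error 0.29, 95% interval 0.99 to 2.27, adjusted p = 0.0288 in limma). The HFD arrays, at 3.81, 4.41 and 4.06, overlapped the control range and stayed below the HFD + LPS range. Carhsp1 was the only member of an innate immunity and inflammation list of 70 genes that had a named probe. Without a single control array the adjusted p of Carhsp1 in limma lay between 0.055 and 0.109, and without HFD + LPS replicate 2 it was 0.0633, while the log2 fold change stayed between 1.43 and 1.86 with any of the 6 arrays left out.

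Cpt1a (chr19:3322326-3385735, GRCm38.p6), carnitine palmitoyltransferase 1A of the outer mitochondrial membrane, was the only gene of a fatty acid oxidation and mitochondria list of 53 to pass the threshold. That list had 3 named probes. The probe for Cpt1a read 2.23, 2.73 and 2.63 in control lungs and 4.08, 3.85 and 3.29 in HFD + LPS lungs. The ranges did not overlap, although the spread within the HFD + LPS group was wider, with 4.08 and 3.29 at its ends. The mean rose from 2.53 ± 0.27 (SD, n = 3) to 3.74 ± 0.40 (SD, n = 3), a log2 fold change of 1.21 (standard error 0.26, 95% interval 0.64 to 1.78, adjusted p = 0.0380 in limma). The HFD arrays read 3.51, 3.85 and 3.66 and lay within the HFD + LPS range. The log2 difference of HFD from the same control arrays was 1.14 (standard error 0.26, adjusted p = 0.864 in limma). That of HFD + LPS from HFD was 0.07 (adjusted p = 0.913). The adjustment for HFD against control ran over 29978 probes, of which 0 passed, so 0.864 does not show that those groups were alike. These comparisons share arrays with the main one and are given side by side only. With the 6 arrays left out in turn, the adjusted p of Cpt1a was 0.0400 without HFD + LPS replicate 3 and between 0.0667 and 0.135 without any other array, while its log2 fold change lay between 1.04 and 1.43.

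The sequences upstream of both genes that rose are given because both signals were higher on the HFD + LPS than on the control arrays. They are the 250 bases before the start of the gene in the RefSeq promoter table (GRCm38.p6), which had an entry for 33 of the 46 named genes. Each is written 5′ to 3′ on the strand of the gene. Capitals mark matches on either strand, none of which overlap another. The GC box, which Sp1 family factors bind, was searched as GGGCGG. The box bound by the factor NF-Y was searched as CCAAT. The box of the general initiation machinery was searched as TATAAA. The half-site of nuclear receptors was searched as AGGTCA. The window of Carhsp1 is chr16:8672154-8672403 on the minus strand. The window of Cpt1a is chr19:3323051-3323300 on the plus strand and lies inside the annotated interval of the gene.
Carhsp1: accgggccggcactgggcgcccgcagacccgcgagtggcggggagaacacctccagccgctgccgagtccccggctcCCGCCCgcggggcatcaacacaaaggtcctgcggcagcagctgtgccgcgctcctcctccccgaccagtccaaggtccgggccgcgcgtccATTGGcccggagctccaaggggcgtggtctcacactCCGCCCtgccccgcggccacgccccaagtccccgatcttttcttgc
Cpt1a: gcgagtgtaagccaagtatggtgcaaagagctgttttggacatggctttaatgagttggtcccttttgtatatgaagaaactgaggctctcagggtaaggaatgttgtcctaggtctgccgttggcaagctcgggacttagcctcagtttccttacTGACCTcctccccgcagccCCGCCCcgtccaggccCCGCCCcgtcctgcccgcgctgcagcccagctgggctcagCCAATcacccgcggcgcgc
Both windows held 2 GC boxes and 1 CCAAT box, all but the CCAAT box of Cpt1a read on the opposite strand. A GC box was present in 32.7% and a CCAAT box in 33.8% of the 32851 windows of this length in the table. The half-site AGGTCA matched once upstream of Cpt1a, 94 bases before the start, and not in the window of Carhsp1, and 14.0% of all windows held it. Neither window held TATAAA, which 12.4% of all windows did. The windows contained 73.2% (Carhsp1) and 59.6% (Cpt1a) G and C, against a median of 52.4%. These matches describe the letters only.

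The other named genes of the fatty acid list, Acaa2 and Ppara, did not pass the threshold. Neither did Pex11a and Apoe, which are not on that list. Acaa2, the mitochondrial thiolase of the last step of beta-oxidation, read 5.65, 6.10 and 5.87 in control and 6.38, 6.44 and 6.16 in HFD + LPS lungs. These ranges did not overlap, with a log2 difference of 0.45 (adjusted p = 0.201 in limma). Ppara, the nuclear receptor that drives many genes of fatty acid oxidation, had a log2 difference of -0.38 (adjusted p = 0.602), with HFD + LPS arrays from -1.67 to -0.10 overlapping a control range of -0.88 to -0.05. Pex11a, which takes part in the division of peroxisomes, had a difference of -0.28 (adjusted p = 0.480). Apoe, the apolipoprotein secreted by macrophages and hepatocytes and the only named gene of a list of 46 for lipid synthesis, storage and transport, had a log2 difference of -0.18 (adjusted p = 0.753). Its HFD + LPS arrays were widely spread, at 6.54, 6.29 and 5.43.

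Actb (chr5:142903115-142907976, GRCm38.p6) was the named gene past the threshold whose probe signal fell. Its probe read 1.09, 0.10 and 0.82 in control lungs and -1.23, -2.31 and -2.23 in HFD + LPS lungs. The groups did not overlap, and the HFD arrays, at 1.69, -0.76 and 0.67, were the most variable of the 3 groups. The mean fell from 0.67 ± 0.51 (SD, n = 3) to -1.93 ± 0.60 (SD, n = 3), a log2 fold change of -2.60 (standard error 0.56, 95% interval -3.84 to -1.35, adjusted p = 0.0396 in limma). Its signal was well above background in all 3 control lungs and in 2 of 3 HFD + LPS lungs, and its 10 spots differed with an SD of 0.15 to 0.71 depending on the array. On HFD + LPS replicate 2 it read -2.31, below that array's lowest detected signal of -0.83, so the size of the fall is uncertain. Of the settings tried, normexp background correction moved the size of the difference most. With it the log2 difference of Actb was -1.07 (adjusted p = 0.0556 in limma), within a range of adjusted p from 0.0223 to 0.350 over 17 alternatives. Of the arrays left out in turn, the adjusted p stayed under 0.05 only without HFD + LPS replicate 1 (0.0415) and was 0.0742 to 0.136 without any other, with log2 fold changes between -2.95 and -2.39. Actb is often used as a reference gene for expression, and its level here was not used to scale any value. In control lungs the probe of Gpi1 averaged 6.81 and that of Apoe 6.26, far above 0.67 for Actb, while other named genes read lower. Whether the Actb probe reports the level of Actb mRNA was not tested.

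A list of 37 cytoskeleton, membrane and adhesion genes had 3 named probes, those of Actb, Cav2 and Anxa8, with 1 call in all, and Cav2 and Anxa8 were also the only named members of a lung epithelium list of 35. Cav2 (chr6:17281185-17289130), caveolin 2, a coat protein of caveolae abundant in endothelium and type I pneumocytes, read 3.89, 4.51 and 4.35 in control and 5.26, 4.85 and 5.36 in HFD + LPS lungs. No control array reached the lowest HFD + LPS array. The log2 difference was 0.91 (standard error 0.24, adjusted p = 0.0583 in limma). Genes outside this list follow. Rab5a (chr17:53479234-53507678), the small GTPase of early endosomes, had tighter groups. It read 4.21, 4.53 and 4.22 in control and 4.89, 5.15 and 5.06 in HFD + LPS lungs, a log2 difference of 0.72 (standard error 0.20, adjusted p = 0.0715). Cav2 and Rab5a missed the threshold here and passed it in 3 other settings each, with adjusted p between 0.0296 and 0.0467 in limma. Over all settings the adjusted p ranged from 0.0362 to 0.396 for Cav2 and from 0.0296 to 0.382 for Rab5a. Tm9sf1, a transmembrane protein of the endosomal and Golgi system, read 3.83, 4.13 and 3.92 in control against 4.27, 4.51 and 4.46 in HFD + LPS lungs. Its HFD arrays, between 3.89 and 4.01, lay within the control range, and the log2 difference of HFD + LPS from control was 0.45 (adjusted p = 0.173). Lhfp, a tetraspan membrane protein, read 3.54, 3.97 and 3.75 in control and 4.29, 4.30 and 4.25 in HFD + LPS lungs. Its 3 HFD + LPS values were the closest together of the named genes tested, and its log2 difference was 0.53 (adjusted p = 0.137). Anxa8, the other member of both lists and an annexin that binds membranes in the presence of calcium, had a log2 difference of -0.20 (adjusted p = 0.649).

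**Figure D1:**
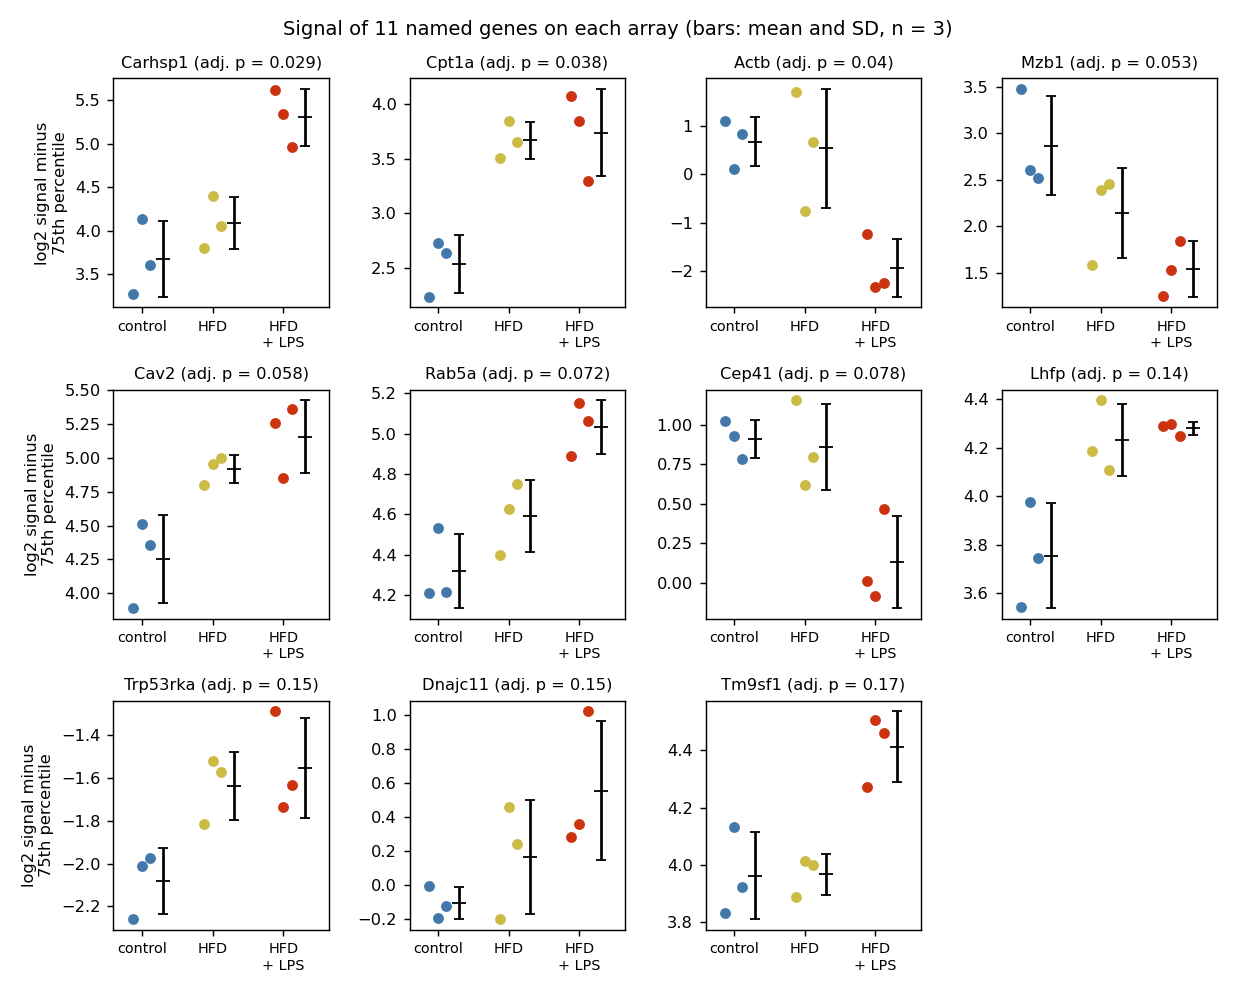
Signal of 11 named genes among those with the lowest p on each array (y axis, log2 signal minus the array's 75th percentile) in control, HFD and HFD + LPS mice, with 1 point per mouse and the mean ± SD in black (n = 3). In all 11 genes the control and HFD + LPS points do not overlap, with 8 genes higher and 3 lower in HFD + LPS lungs. The genes were chosen by p in this same comparison, and 29.9% of all probes tested did not overlap. For Cpt1a the HFD points sit within the HFD + LPS range, and for Carhsp1 and Actb the HFD means sit nearer to control.

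The next genes belonged to no list and did not pass the threshold. Mzb1, an endoplasmic reticulum chaperone of marginal zone B cells, B1 cells and plasma cells, read 3.48, 2.61 and 2.52 in control and 1.25, 1.53 and 1.84 in HFD + LPS lungs. The ranges did not overlap, and the log2 difference was -1.33 (standard error 0.33, adjusted p = 0.0526 in limma). The HFD arrays, at 1.59, 2.39 and 2.45, overlapped the HFD + LPS range. Chgb, chromogranin B of neuroendocrine secretory granules, had a log2 difference of -0.49 (adjusted p = 0.220), also without overlap. Its HFD arrays, between -0.64 and -0.09, lay below every control array as well. Cep41, a centrosomal and ciliary protein, read 1.02, 0.93 and 0.78 in control against 0.01, -0.08 and 0.47 in HFD + LPS lungs, a log2 difference of -0.78 (adjusted p = 0.0784). In whole lung lobes fewer cells of a type and less RNA per cell cannot be told apart. Lists of markers for macrophages and monocytes (29 genes), neutrophils (17), lymphocytes (23), endothelium, smooth muscle and fibroblasts (35) and other tissue next to the lung (30) had no named probe, and neither did the surfactant genes that define alveolar epithelium. The cell composition and the labelled tissue could therefore not be checked against defining markers here.

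Gsdmd, the pore-forming effector of pyroptosis, read 1.88, 1.68 and 1.60 in control and 2.08, 2.89 and 1.50 in HFD + LPS lungs. HFD + LPS replicates 1 and 2 were above and replicate 3 was below the control range, and the log2 difference of 0.44 did not pass the threshold (adjusted p = 0.411 in limma). H2-M2, a non-classical class I histocompatibility gene, read 1.57, 2.20 and 2.60 in HFD + LPS lungs against 2.02, 1.68 and 1.28 in control, a log2 difference of 0.46 (adjusted p = 0.341). H2-M2 belongs to a family of similar genes whose transcripts a probe may share. Gsta4, a glutathione transferase that detoxifies products of lipid peroxidation, had a log2 difference of 0.50 (adjusted p = 0.232), and Prdx2, a peroxiredoxin, 0.17 (adjusted p = 0.610). Bambi, a decoy receptor that damps TGF-beta signalling and the only named gene of a list of 34 for TGF-beta, BMP and Wnt signalling, read 2.63, 1.29 and 1.91 in HFD + LPS lungs. The control arrays, at 1.72, 2.59 and 2.39, lay within that range, and the log2 difference was -0.29 (adjusted p = 0.646).

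Of the remaining named genes, Dnajc11, a J-domain protein of mitochondrial cristae, read 0.00, -0.19 and -0.12 in control and 0.28, 0.36 and 1.02 in HFD + LPS lungs, a log2 difference of 0.66 (adjusted p = 0.152 in limma). Trp53rka, which encodes a p53-related kinase, read -2.26, -2.01 and -1.97 in control and -1.29, -1.74 and -1.63 in HFD + LPS lungs, and the log2 difference was 0.53 (adjusted p = 0.151). It has a close copy in the mouse genome, Trp53rkb, and was well above background on 2 control and 2 HFD + LPS arrays, so its identity and level are uncertain. Nup50, a nucleoporin, had a log2 difference of 0.51 (adjusted p = 0.194). Gamt, of creatine synthesis, had 0.46 (adjusted p = 0.254), Alkbh4, a dioxygenase, 0.39 (adjusted p = 0.274) and Gpi1, of glycolysis, 0.30 (adjusted p = 0.365). Hspb7, a small heat shock protein best known from heart muscle, had a log2 difference of 0.53 with a standard error of 0.65 (adjusted p = 0.641). It was well above background on 1 control array and on 3 HFD + LPS arrays, so it was tested mainly through the latter. Rps4l, a transcribed pseudogene related to ribosomal protein S4, had -0.18 (adjusted p = 0.770), and Taf1a, of the RNA polymerase I machinery, -0.11 (adjusted p = 0.779). The other 6 tested genes were Atg3, Olfr1307, Mbp, Hyal3, Uhrf1bp1l and H2-Q7, with log2 differences between -0.13 and 0.18 and adjusted p of 0.858 or more. Taking all 36 genes, 20 lay above 0 and 16 below. Other settings were run for the first 30 of these by p. Among them the sign turned under at least 1 setting for Chgb, Pex11a, Ppara, Bambi, Anxa8, Apoe, Rps4l, Taf1a, Trp53rka, Hspb7 and Gsdmd. The median SD between the arrays of a group was 0.26, and the median SD between the spots of a probe on an array was 0.15 (log2). With 1 array per mouse, the first holds differences between mice and between arrays, which cannot be told apart.

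**Figure D2:**
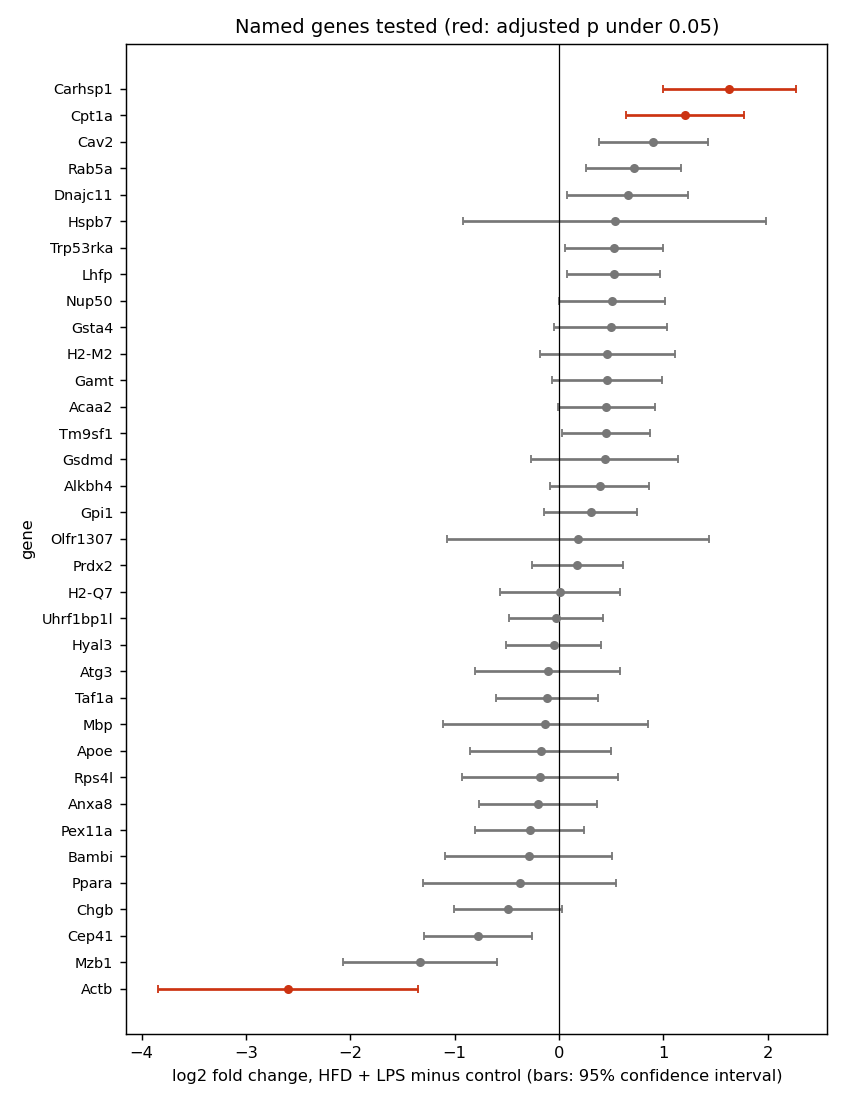
Log2 fold change of HFD + LPS minus control (x axis) for 35 of the named genes tested, with the 95% interval of limma as bars and genes past an adjusted p of 0.05 in red. Carhsp1 (1.63) and Cpt1a (1.21) lie at the upper end and Actb (-2.60) at the lower end, and the intervals of most other genes include 0.

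The other 10 named genes were too dim to test, and so have no comparison. Kcnn2, E2f1, Il2 and Gm9789 were well above background on 1 of the 3 control arrays each, and on 1 of the HFD + LPS arrays for E2f1, Il2 and Gm9789 and none for Kcnn2. Lhx1 and Olfr166 were well above background on 1 HFD + LPS array and no control array. Tyr, Spats1, Gabrg1 and Duox1 were not well above background on any of the 6 arrays. E2f1, a transcription factor of entry into S phase, was the only named gene of a cell cycle and growth list of 31. Lists for protein synthesis, folding and turnover (36 genes) and for the m6A enzymes and miR-192 pathway of the study (10) had no named probe.

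Over all 28264 probes tested, the log2 fold change had quartiles of -0.41 and 0.36, and 3217 probes (11.4%) differed by more than 1. Of the 1133 called probes, 1008 did so, and 283 differed by more than 2 on the log2 scale. The called probes that were higher had a median log2 fold change of 1.27, and those that were lower -1.63. The share of calls that were higher, 45.6% in all, differed with the level of the probe. The probes were divided into 4 equal sets by mean signal. In the dimmest set 67 of 268 calls were higher (25%), in the next sets 40.7% and 49.5%, and in the brightest set 176 of 264 (66.7%). No test was made of this order, and it depends on which dim probes were admitted. Probes need detection on 3 of 6 arrays, so a dim probe can enter through 1 group alone. Among probes detected on all 6 arrays, a split added after the data were seen, the shares were 78.4%, 57.8%, 67.0% and 62.6% from the dimmest to the brightest set. Over all levels, the share of calls that were higher was 67.8% with normexp background correction, 65.4% when only probes above background on each of the 6 arrays were tested and 86.9% without normalisation between arrays. The shift of all probes in the last setting, a median log2 fold change of 0.54, compares with a difference in array brightness of 0.56.

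**Figure D3:**
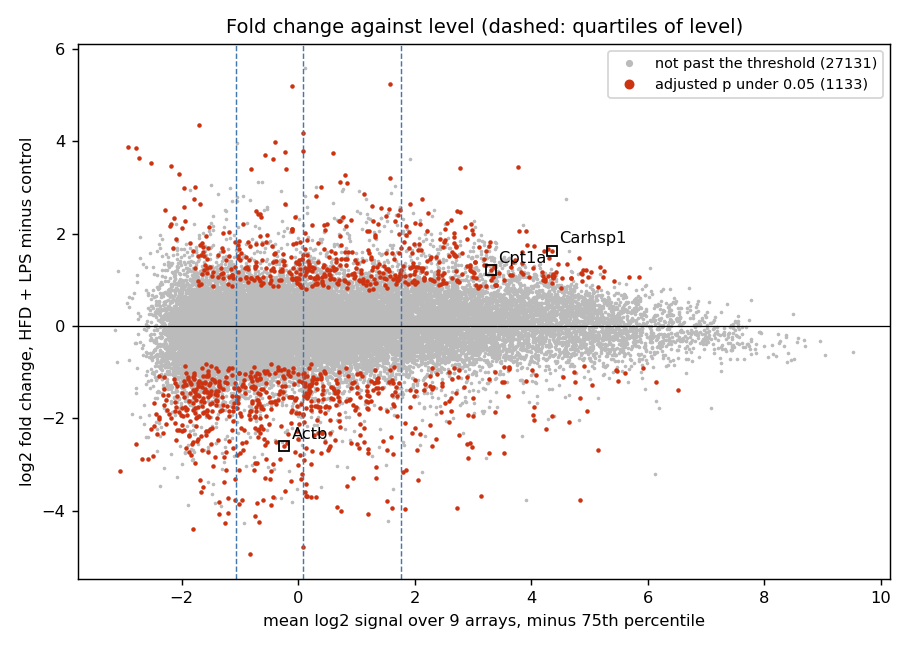
Log2 fold change of HFD + LPS minus control (y axis) against the mean log2 signal over 9 arrays relative to the 75th percentile (x axis) for the 28264 probes tested, with the 1133 past an adjusted p of 0.05 in red and dashed lines at the quartiles of level. Red points below 0 outnumber those above it at the dim end, where probes may be tested through detection in 1 group, and the reverse holds at the bright end. Squares mark Carhsp1, Cpt1a and Actb.

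Probe types differed in the direction of their calls. Probes identified as long non-coding RNAs, which are not translated, gave 431 calls among 12441 tested (3.46%), of which 150 were higher (34.8%). Probes with identifiers that begin with ASMM10AP, which the files do not pair with genes, gave 559 calls among 12597 (4.44%), of which 330 were higher (59.0%). Those that begin with ASMM10P gave 133 among 3030 (4.39%), of which 32 were higher (24.1%). The long non-coding RNA and ASMM10P probes were tested less often, 42.0% and 38.3% of those on the array against 56.3% of ASMM10AP probes. Those that begin with ASMM10UP, of which 21.0% were tested, gave 7 calls among 158 (4.43%), 42.9% of them higher. The difference in direction between types was not tested.

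Detection was also counted, since a probe can be above background in 1 group only. Of 59888 probes with a value on all 9 arrays, 28 were well above background on all 3 HFD + LPS arrays and no control array, and 291 were so on all 3 control arrays and no HFD + LPS array. Of the 28, 3 were detected on all 3 HFD arrays and 9 on none. Of the 291, 149 were detected on all 3 HFD arrays and 9 on none. The lowest signal called well above background, on the log2 scale before normalisation, was 3.65 ± 0.24 (SD, n = 3) on control and 4.43 ± 0.65 (SD, n = 3) on HFD + LPS arrays. Relative to the 75th percentile of the array it was -1.70, -2.21 and -2.17 on control arrays and -1.94, -0.83 and -2.65 on HFD + LPS arrays. On that scale HFD + LPS replicate 2 had the highest limit and replicate 3 the lowest.

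The probes that differed most could not be named. Probe ASMM10AP1B104825097V4 read 1.30, -0.17 and -0.48 on control arrays and 2.70, 7.23 and 6.46 on HFD + LPS arrays. HFD + LPS replicate 1 was far below the other 2 arrays of its group, and the log2 fold change was 5.25 (standard error 0.98, adjusted p = 0.0317 in limma). Probe ASMM10LNC1A114703342V4, for a long non-coding RNA, read -1.63, -1.76 and -1.68 on control arrays and 0.54, 5.56 and 4.45 on HFD + LPS arrays. The same array was again the lowest of its group, and the log2 fold change was 5.21 (standard error 1.01, adjusted p = 0.0344). It was well above background on 2 of 3 control arrays and 1 of 3 HFD arrays. The HFD arrays lay between -2.58 and -1.39 for this probe. Probe ASMM10LNC1A104139403V4 read between 0.47 and 1.74 on control arrays. It was not well above background in any HFD + LPS lung and was at least 7.50-fold lower there (adjusted p = 0.0158). Probe ASMM10AP1B117940461V4 read 3.02, 2.38 and 0.86 on control arrays, was likewise not well above background in any HFD + LPS lung and was at least 14.8-fold lower (adjusted p = 0.0290). Both probes were tested through their control arrays alone, and the adjusted p belongs to the fit of the measured dim signals and not to the bound. These bounds replace a dim signal by the array's lowest detected signal wherever that is higher.

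Both comparisons with the HFD arrays share arrays with the main one and are given beside it. With limma, HFD against control gave 0 calls among 29978 probes (0%) and 1353 at an unadjusted p under 0.05 (4.51%). HFD + LPS against HFD gave 74 calls among 29698 (0.249%) and 5345 at an unadjusted p under 0.05 (18%). Carhsp1 had log2 differences of 0.42 for HFD minus control (adjusted p = 0.9996 in limma) and 1.21 for HFD + LPS minus HFD (adjusted p = 0.0893). Actb had -0.14 (adjusted p = 0.9996) and -2.46 (adjusted p = 0.0856). Cpt1a had 1.14 (adjusted p = 0.864) and 0.07 (adjusted p = 0.913). None of these passed the threshold. Whether the genes differ in this respect was not tested.

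The arrays of both groups differed in ways other than diet and LPS. Brightness, the 75th percentile before normalisation, was 5.68 ± 0.07 (log2, SD, n = 3) in control and 6.24 ± 0.31 (SD, n = 3) in HFD + LPS arrays, and every HFD + LPS array was brighter than every control array. The difference was 0.56 (two-sided exact permutation test, p = 0.1, and 3 arrays against 3 can give no smaller value). Negative control spots read 2.77 ± 0.62 (intensity, SD, n = 3) and 4.92 ± 2.29 (SD, n = 3), with 7.53 on HFD + LPS replicate 2 (two-sided exact permutation test, p = 0.2). Fewest probes, 32.6%, were well above background on that array, against 40.6% to 49.8% on control arrays and 45.7% and 53.0% on the other HFD + LPS arrays. Slide 1 held the control arrays in its row 1 and HFD + LPS replicates 1 and 2 in its row 2, whereas replicate 3 of that group was in row 1 of slide 2. Pearson's r across probes was 0.956 to 0.969 between control arrays, 0.937 to 0.943 between HFD + LPS arrays and 0.891 to 0.938 between the groups, and probes are not independent replicates.

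**Figure D4:**
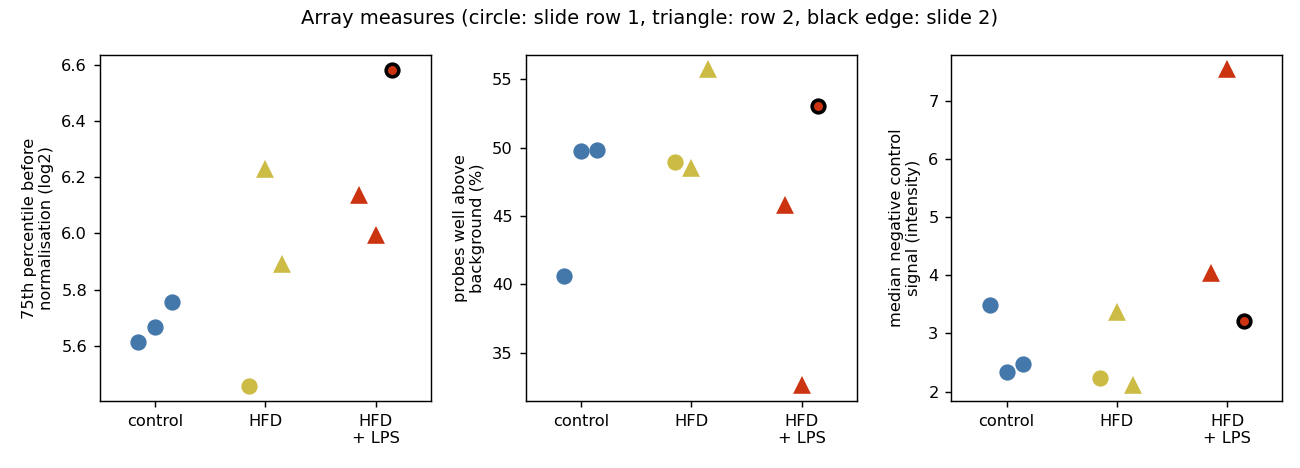
Brightness before normalisation (log2), probes well above background (percent) and median signal of negative control spots (intensity) on each of the 9 arrays by group, with circles for slide row 1, triangles for row 2 and a black edge for slide 2. The 3 control arrays sit below the 3 HFD + LPS arrays in brightness, and HFD + LPS replicate 2 stands out by its negative control signal (7.53) and by how few of its probes were well above background (32.6%).

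The comparison was repeated with these measures in the model or with arrays left out. With row as a block limma gave 0 calls and 4430 probes at an unadjusted p under 0.05. With brightness as a covariate it gave 0 calls, and 3795 probes were under 0.05 before adjustment. Within slide 1, which leaves out HFD + LPS replicate 3, there were 495 calls, 337 of them among the 1133. Within row 1, where HFD + LPS replicate 3 was the only array of its group and was assumed to vary like the others, there were 311 calls, 138 of them among the 1133. Leaving out control replicate 1, 2 or 3 gave 15, 9 and 412 calls. Leaving out replicate 1 or 2 of the HFD + LPS group gave 889 and 42. In row 1 the HFD + LPS array and the control arrays lie on different slides, so slide and group cannot be told apart there. Within row 1 the log2 difference was 1.29 for Carhsp1 (adjusted p = 0.135), 0.76 for Cpt1a (adjusted p = 0.228) and -2.91 for Actb (adjusted p = 0.0491). With brightness as a covariate these were 1.54, 1.28 and -1.45, with adjusted p of 0.227, 0.240 and 0.350. The slide block, the fit within slide 1 and the fit without HFD + LPS replicate 3 give the same values and count as 1 alternative. The signs of these 3 genes did not change in any of the 18 alternatives for Carhsp1 and Cpt1a or the 17 for Actb. Over those alternatives the adjusted p ranged from 0.0135 to 0.227 for Carhsp1 and from 0.0203 to 0.240 for Cpt1a.

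**Figure D5:**
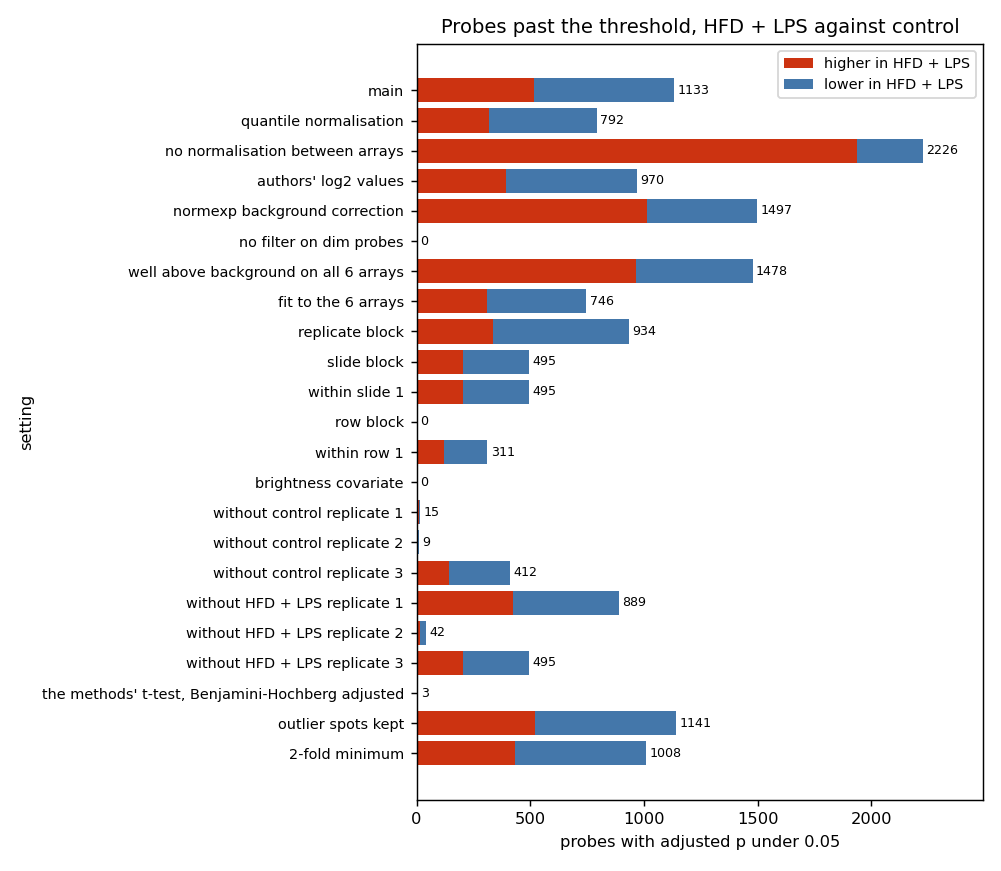
Number of probes with an adjusted p under 0.05 for HFD + LPS against control (x axis, from 0) in the main analysis and under each other setting (y axis), split into higher (red) and lower (blue). The main analysis gave 1133, the row block, the brightness covariate and no filter on dim probes gave 0, and no normalisation between arrays gave 2226, mostly higher.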

How the data were processed

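RNA from lung lobes of 9 mice was depleted of rRNA, labelled by random priming and hybridised to 1-colour Agilent arrays. Per the labels, spots were read with Agilent Feature Extraction 11.0.1.1, and the authors deposited each spot's intensity after background subtraction and spatial detrending, with no normalisation between arrays. A table of log2 values was deposited as well, normalised by the authors in GeneSpring GX and used here as an alternative only; the method is not named in the sources used here, and its columns share 1 distribution. That table was not used for the named genes.

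From the intensities, control spots, outlier spots and 132 spike-in and design control probes were left out, log2 values of a probe's spots were averaged, and arrays were scaled by subtracting their 75th percentile. Probes were tested if they had a value on all 9 arrays and stood well above background on 3 or more of the 6 arrays. A probe was well above background where at least 50% of its spots were. The 3 groups (9 arrays, 6 residual degrees of freedom) were fitted in 1 model without covariates, using lmFit and eBayes of limma 3.58.1 (R 4.3.3). Benjamini-Hochberg adjustment ran over all probes tested, with a threshold of 0.05. The step was also run on simulated arrays with independent noise and no effect of row, slide or brightness, so that run does not bear on those. Figures and promoter matches were made with Python 3.11.15. Normexp used an offset of 50 on median spot signals. Arrays have no read depth, and their number limits the precision. Slides were told apart by scan, and rows by the position in the file headers.

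Accessions were matched to RefSeq (GRCm38.p6). Values on every array were given for named genes past the threshold and those next in p, 12 in all, and up to 30 tested genes were described. Of these, 1 gene counts in the totals and is not reported here. Single-array values were also given for some other genes, outside that choice. The 2 unnamed probes that rose most and the 2 that fell most were shown, among those past the threshold with no overlap and well above background on all 3 arrays of the brighter group. The comparison, the named genes and the lists were chosen with earlier results of these data known. The probe sequences and the genes of the other identifiers were not analysed here.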

Additional observations from a re-analysis of the deposited data

How the results depend on the processing

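The count of 1133 stayed within 1.5 times with quantile normalisation (792), the authors' log2 values (970), normexp (1497), probes well above background on all 6 arrays (1478), outlier spots kept (1141) and a 2-fold minimum (1008). It was 2226 without normalisation between arrays, 746 with the fit to the 6 arrays, 495 with the slide block and within slide 1, 311 within row 1, and 0 with the row block, the brightness covariate or no filter on dim probes (59888 tested, 7483 at an unadjusted p under 0.05). By the methods' t-test there were 5566 at an unadjusted p under 0.05 and 3 after Benjamini-Hochberg adjustment. With 1 array left out the count ranged from 9 to 889. The share of calls that were higher, 45.6%, was 86.9% without normalisation, 67.8% with normexp, 65.4% with the strict filter, 66.7% among the 3 calls of the methods' t-test, and from 35.2% to 66.7% with 1 array left out. The median log2 fold change, -0.017, was 0.54 without normalisation, 0.13 with no filter, 0.068 with the strict filter, 0.018 within row 1, and from -0.041 to 0.015 with 1 array left out. The value without normalisation follows from array brightness, and the filters change which probes are tested. For the other settings the cause was not tested.

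Replicate numbers do not pair the mice (r = -0.17, -0.038 and 0.052 between deviations of same-numbered arrays). With the replicate block there were 934 calls, 739 of them among the 1133, and Cpt1a had an adjusted p of 0.0514.

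For the 30 genes chosen by the rule, and with the identical fits of the slide block, slide 1 and no HFD + LPS replicate 3 counted once, 468 values under other settings kept their direction and side of the threshold, 32 were no longer past it, 10 came past it and 25 changed sign. The 32 were all values of the 3 called genes, of which Carhsp1 kept an adjusted p under 0.05 in 9 of 18 settings, Actb in 7 of 17 and Cpt1a in 5 of 18 (0.0637 with quantile normalisation, 0.0624 with the fit to the 6 arrays). Those that came past it were Cav2 and Rab5a without normalisation, with normexp and with the strict filter, Lhfp, Tm9sf1 and Gpi1 with normexp, and Mzb1 with the strict filter (adjusted p from 0.0296 to 0.0494). The sign changes were those of genes that had not passed the threshold. Without normalisation between arrays they were Chgb (0.0709), Pex11a (0.275), Ppara (0.179), Bambi (0.266), Anxa8 (0.354), Apoe (0.381), Rps4l (0.376) and Taf1a (0.443). With normexp they were Taf1a (0.0549), Trp53rka (-0.0186), Anxa8 (0.0235), Hspb7 (-0.0273) and Apoe (0.0296). With the brightness covariate they were Apoe (0.107), Rps4l (0.202) and Taf1a (0.169), with the row block Rps4l (0.0406), and within row 1 Gsdmd (-0.219) and Anxa8 (0.215). With the slide block and within slide 1 they were Apoe (0.154) and Taf1a (0.0044). With 1 array left out, Rps4l ranged from -0.445 to 0.126, Ppara from -0.783 to 0.00124, Bambi from -0.636 to 0.0375, Apoe from -0.403 to 0.154 and Taf1a from -0.25 to 0.0044. Signal over background limited the tests to 28264 of 59888 probes.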
